A study of Mus musculus with 12 samples.

Results

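The genes described here are 40 mouse genes of the cell cycle, taken by name from a list of S phase and mitosis genes. Their Ensembl identifiers were all found among the 52636 genes of the count table, and all 40 passed the filter on low counts that left 18822 genes for testing. By the known role of each protein, 27 act in mitosis and 13 in S phase or in entry into it. The smallest count behind any of their values was 109 reads (*Ccne1*) and the largest 13861 (*Mki67*). RNA-seq was run on full-thickness shaved dorsal skin of 12 mice (C57BL/6 in the labels, C57BL/6J in the study's methods), 3 in each of 4 groups, at an age of 3 months by the labels and on day 14 of treatment. WT and KO mice received the vehicle, normal saline with hydroxypropyl methylcellulose (HPMC), and WT+ZnO NPs and KO+ZnO NPs mice received zinc oxide nanoparticles in that vehicle on the skin. KO mice lacked *Cdc42*, a small GTPase of cell polarity, in cells in which the keratin K5 promoter drives Cre recombinase, that is in basal keratinocytes and their progeny, so the other skin cells kept the gene. The labels do not say more of how the 3 samples of a group relate, so p-values measure the spread between these samples.

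Total counts lay between 21076320 and 28867802 per library. Levels are given as CPM, read counts scaled to a common library size, after edgeR's TMM scaling. *Cdc42* itself was at 606 to 628 CPM in WT, 415 to 464 in KO, 311 to 350 in the WT+ZnO NPs-labelled libraries and 314 to 453 in those labelled KO+ZnO NPs, so that the transcript went against the label WT+ZnO NPs, and the treated groups are named by their labels throughout. Y-linked transcripts summed to 192 to 242 CPM in 5 libraries, namely all 3 labelled WT+ZnO NPs, KO replicate 1 and KO+ZnO NPs replicate 1, and to at most 0.0504 CPM in the other 7, which held *Xist* at 460 to 1030 CPM. The study describes the KO mice as female. No WT library held Y-linked transcripts, so sex and treatment cannot be told apart in the comparison of the WT+ZnO NPs-labelled libraries with WT. Markers of skin were present: 8 basal keratinocyte genes summed to between 4596 and 12830 CPM in all 12 libraries.

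Cells that divide first copy their DNA in S phase and then separate the copies in mitosis. The genes of S phase are mostly switched on by E2F factors as cells leave G1, and those of mitosis later by the factors MuvB, B-MYB and FOXM1. In skin, dividing cells sit among the basal keratinocytes and, in growing (anagen) hair follicles, in the hair matrix and the root sheaths.

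Promoter windows from RefSeq, 250 bases before to 50 after the gene start on GRCm38.p6, were found for 33 of the 40 genes, 22 of mitosis and 11 of S phase, and no window was found for *Foxm1*. The windows of 3 mitosis genes, *Cdk1* (chr10:69352863-69353162, minus strand), *Plk1* (chr7:122159185-122159484, plus strand) and *Ccnb2* (chr9:70421505-70421804, minus strand), and of 1 S phase gene, *Mcm5* (chr8:75109259-75109558, plus strand), are shown because they hold the elements by which the promoters of both groups are known to differ. They read 5′ to 3′ on the strand of the gene, with capitals for the CCAAT box (CCAAT), the CHR (TTTGAA or TTCGAA) and the E2F core, on either strand. The E2F core was searched as TTCCCGC and as its variant TTGGCGC, and besides as TTCGCGC and as TTGCCGC.
Cdk1: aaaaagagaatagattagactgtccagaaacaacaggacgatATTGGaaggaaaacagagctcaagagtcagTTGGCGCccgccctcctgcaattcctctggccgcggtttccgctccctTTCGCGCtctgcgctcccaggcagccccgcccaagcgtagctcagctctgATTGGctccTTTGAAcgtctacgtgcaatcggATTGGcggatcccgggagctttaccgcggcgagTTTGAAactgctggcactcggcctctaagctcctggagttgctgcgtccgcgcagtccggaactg
Plk1: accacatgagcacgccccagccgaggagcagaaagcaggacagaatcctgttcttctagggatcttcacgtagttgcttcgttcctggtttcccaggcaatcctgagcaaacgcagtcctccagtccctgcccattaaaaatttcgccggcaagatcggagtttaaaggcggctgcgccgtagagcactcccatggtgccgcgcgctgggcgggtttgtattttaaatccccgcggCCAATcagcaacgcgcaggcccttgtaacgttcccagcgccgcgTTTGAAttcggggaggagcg
Ccnb2: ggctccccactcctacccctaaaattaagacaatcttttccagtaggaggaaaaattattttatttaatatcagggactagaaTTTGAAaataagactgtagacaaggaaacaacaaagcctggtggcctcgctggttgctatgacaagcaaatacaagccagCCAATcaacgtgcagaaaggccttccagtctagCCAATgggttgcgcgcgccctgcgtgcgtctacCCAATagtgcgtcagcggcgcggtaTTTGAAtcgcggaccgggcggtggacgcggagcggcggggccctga
Mcm5: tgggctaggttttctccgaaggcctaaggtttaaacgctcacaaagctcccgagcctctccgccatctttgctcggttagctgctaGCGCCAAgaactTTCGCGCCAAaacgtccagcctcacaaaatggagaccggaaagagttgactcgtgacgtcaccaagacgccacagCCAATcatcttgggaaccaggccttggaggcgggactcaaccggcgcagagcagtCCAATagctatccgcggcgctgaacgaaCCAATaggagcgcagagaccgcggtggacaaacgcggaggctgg
*Cdk1*, which encodes the kinase that drives cells into mitosis, held 3 CCAAT boxes, 2 CHR elements at -71 and -15 from the start and 2 E2F cores. *Plk1* held 1 CCAAT box at -14 and 1 CHR at 31, and *Mcm5* held 3 CCAAT boxes and 3 E2F cores, of which a pair overlap, and no CHR. A CHR was found in 18 of the 22 mitosis windows (81.8%), in 2 of the 11 S phase windows (18.2%) and in 14.5% of the windows of 12953 tested genes. The E2F core was found in 3 mitosis windows (13.6%), in 6 S phase windows (54.5%) and in 15.4% of all windows. CCAAT boxes were in 86.4% of the mitosis and 72.7% of the S phase windows, against 37.9% of all, and a CCAAT box together with a CHR in 77.3%, 18.2% and 6.0%. These matches describe the letters of the windows and do not show that a factor bound there.

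In WT skin the highest levels per length of exon were those of S phase genes. *Pcna*, the sliding clamp of the replication fork, came first at 75.6 ± 2.27 CPM per kb of exon (SD, n = 3), followed by *Mcm6* at 18.3, *Mcm5* at 13.7, *Mcm3* at 13.6 and *Mcm4* at 13.1, all subunits of the replicative helicase. The neighbours *Mcm5*, *Mcm3* and *Mcm4* differed by less than the SD of *Mcm5* (1.34). Of the mitosis genes, *Cdc20* (12.45 CPM per kb), *Ccnb2* (10.6) and *Mki67* (10.1) came highest and *Cenpf* (1.12) lowest. The highest WT library exceeded the lowest by a median of 2.21-fold over the 27 mitosis genes and 1.22-fold over the 13 S phase genes. The same medians were 2.04 and 1.845 in the WT+ZnO NPs-labelled libraries, 1.96 and 1.36 in KO and 1.25 and 1.31 in KO+ZnO NPs. WT replicate 3 was the highest WT library for 39 of the 40 genes, and KO replicate 3 the highest KO library for all 40.

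Between the WT+ZnO NPs-labelled libraries and WT, 30 of the 40 genes rose and 0 fell at adjusted p values under 0.05 (quasi-likelihood F test of edgeR, Benjamini-Hochberg over all tested genes), against 20.8% of all genes that rose and 22.1% that fell. These were 24 of 27 mitosis genes and 6 of 13 S phase genes, with a median log2 fold change of 1.47 and 0.61, against 0.06 over all genes tested. Between KO+ZnO NPs and KO, 20 of the 40 genes rose and 0 fell, against 6.57% and 8.09% of all genes, namely 14 mitosis genes and 6 S phase genes, with a median log2 fold change of 1.22 and 0.735, against 0.01 over all genes tested. In 28 of the 40 genes all libraries labelled WT+ZnO NPs lay above all WT libraries, as in 30.1% of all genes, and in 38 of the 40 all KO+ZnO NPs libraries lay above all KO libraries, as in 17.0% of all genes. The lists of genes that rose shared 16 genes, which are 53.3% of the former list and 80.0% of the latter, and 6 genes (*Ccne2*, *Kif20a*, *Mcm3*, *Mcm4*, *Pcna* and *Rrm1*) were in neither. In bulk skin, more dividing cells and more RNA of these genes per dividing cell cannot be told apart.

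Of the 30 genes, 17 passed in each of 21 alternative settings and leave-one-out fits, among them *Mki67*, *Cdk1*, *Plk1*, *Foxm1*, *Rrm2* and *Tk1*, and 18 genes passed in place of 30 once a Y-linked covariate was added. That covariate did not vary within WT or within the WT+ZnO NPs-labelled libraries. The median log2 fold change over the 40 genes in this comparison stayed between 1.16 and 1.685 over the 21 alternatives. The count between KO+ZnO NPs and KO depended on single libraries. It was 1 without KO replicate 2, 2 without KO replicate 1, 2 without KO+ZnO NPs replicate 2 and 7 without KO+ZnO NPs replicate 3. With replicate 1 of both groups, which held Y-linked transcripts, left out, it was 4. It was 28 without the library labelled WT+ZnO NPs replicate 1, 34 with a replicate block and 35 in DESeq2, where 22.6% of all genes passed. In the main fit the unadjusted p was below 0.05 for 36 of the 40 genes, against 32.6% of all genes. That number was 30 without KO replicate 2, 30 without KO replicate 1 and 37 without KO+ZnO NPs replicate 2. Shares of all genes in the fits with libraries left out were not taken. The median log2 fold change over the 40 genes stayed between 0.96 and 1.40 over 22 alternatives. *Tyms* was the 1 gene that passed in all 22 of these settings.

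**Figure D1:**
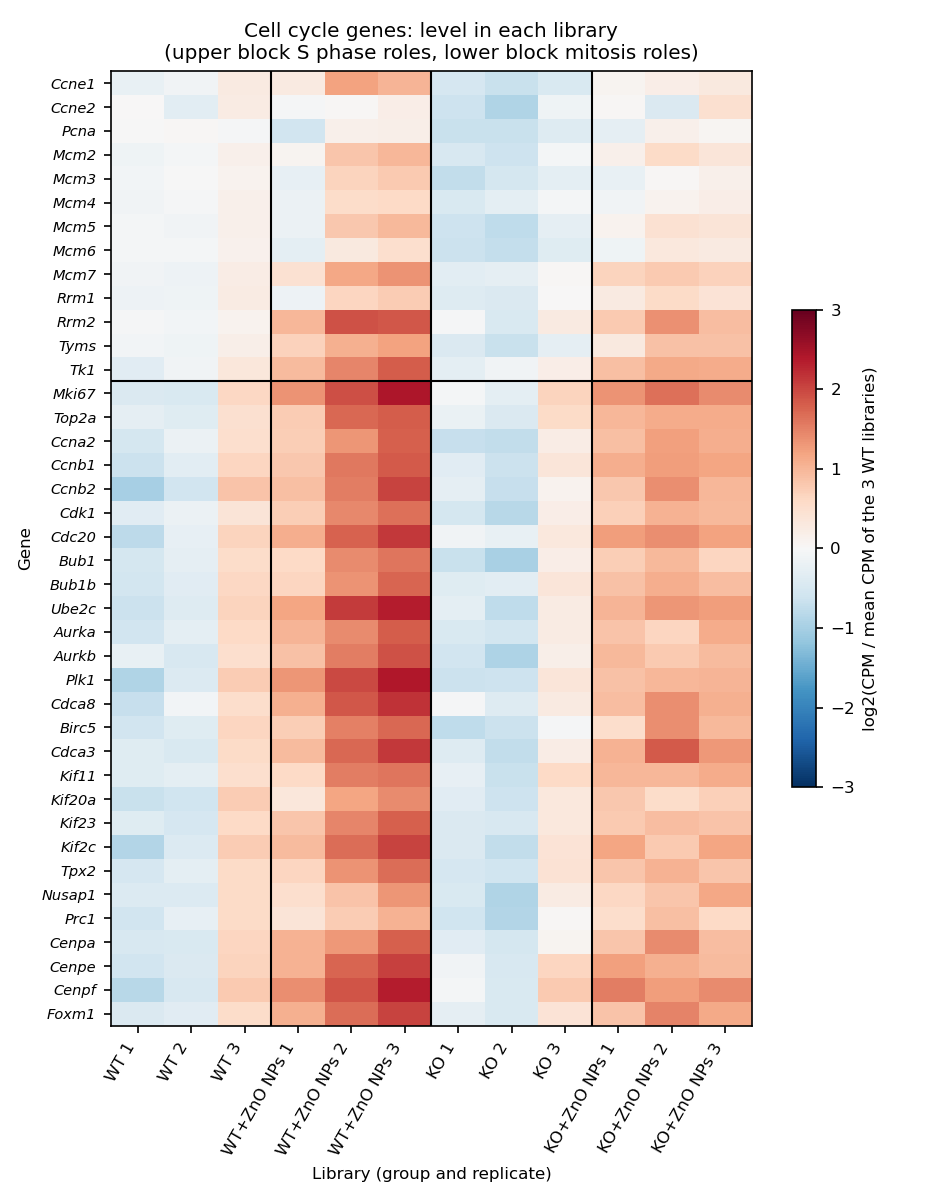
Level of each of the 40 genes (rows) in each of the 12 libraries (columns), as the log2 ratio of its CPM to the mean of the 3 WT libraries, on a colour scale from -3 to 3. The block of 27 mitosis genes is raised in all 6 libraries given ZnO NPs, most in WT+ZnO NPs-labelled libraries 2 and 3, and the 13 S phase genes vary less.

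The general mark of dividing cells, *Mki67*, a protein of the surface of mitotic chromosomes, showed one of the largest differences. Its level was 74.7, 73.4 and 156 CPM in WT and 259, 385 and 548 CPM in the WT+ZnO NPs-labelled libraries, a log2 fold change of 1.97 (SE 0.37, adjusted p = 0.00204 from edgeR). In KO it was 96.8, 83.3 and 162 CPM and in KO+ZnO NPs 257, 317 and 273 CPM, a log2 fold change of 1.31 (SE 0.37, adjusted p = 0.0389 from edgeR). Neither pair of groups overlapped, and the lowest treated library stood above the high WT replicate 3. *Top2a*, the topoisomerase that untangles replicated chromosomes, was at 62.7, 59.4 and 106 CPM in WT and 129, 251 and 268 in the WT+ZnO NPs-labelled libraries, a rise of 1.51 on the log2 scale (SE 0.34, adjusted p = 0.00497 from edgeR). It was at 66.1, 56.0 and 114 CPM in KO and 152, 164 and 164 in KO+ZnO NPs, a log2 fold change of 1.02 that did not pass (SE 0.33, adjusted p = 0.0623 from edgeR) although the groups did not overlap.

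Of the kinase of mitosis and 3 cyclins, 4 of 4 genes rose in the WT+ZnO NPs-labelled libraries and 3 in KO+ZnO NPs. *Cdk1* stood at 21.4, 23.9 and 35.5 CPM in WT and at 45.2, 73.3 and 84.6 CPM in the WT+ZnO NPs-labelled libraries (log2 fold change 1.33, SE 0.31, adjusted p = 0.00577 from edgeR). In KO it was at 18.8, 15.02 and 30.7 CPM, and in KO+ZnO NPs at 43.9, 55.6 and 53.0 CPM (log2 fold change 1.24, SE 0.31, adjusted p = 0.0257 from edgeR). All treated libraries exceeded all untreated libraries of either genotype. *Ccnb1*, the cyclin that activates this kinase, was at 16.2, 20.4 and 39.95 CPM in WT and 44.7, 75.9 and 91.1 in the WT+ZnO NPs-labelled libraries. Its level was 20.2, 16.4 and 32.7 CPM in KO and 54.0, 60.4 and 57.6 in KO+ZnO NPs. It rose by a log2 fold change of 1.47 (SE 0.37, adjusted p = 0.00938) and 1.31 (SE 0.37, adjusted p = 0.0398 from edgeR), but 23.4% of the 50-base stretches of its transcripts occur in other genes, mostly *Ccnb1-ps*, so that reads can be split. *Ccna2*, the cyclin of late S phase and G2, rose in both comparisons (log2 fold change 1.34 and 1.42), and *Ccnb2* in the WT+ZnO NPs-labelled libraries (1.56), with a log2 fold change of 1.34 in KO+ZnO NPs that did not pass.

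Genes of the spindle checkpoint and of the anaphase-promoting complex, which holds and then releases the sister chromatids, all rose in the WT+ZnO NPs-labelled libraries, and 2 of the 4 did in KO+ZnO NPs. *Cdc20*, which activates the complex, was at 13.5, 19.6 and 36.7 CPM in WT and 49.6, 79.9 and 101 in the WT+ZnO NPs-labelled libraries. Its level was 21.5, 20.01 and 29.01 CPM in KO and 55.2, 61.6 and 53.8 in KO+ZnO NPs. Its log2 fold change was 1.72 (SE 0.35, adjusted p = 0.00302) in the former comparison and 1.27 (SE 0.35, adjusted p = 0.0355 from edgeR) in the latter. *Bub1b*, a checkpoint protein, was at 15.1, 17.5 and 34.2 CPM in WT and 34.6, 56.9 and 74.2 in the WT+ZnO NPs-labelled libraries. Its level was 17.3, 18.0 and 28.4 CPM in KO and 41.2, 47.3 and 42.5 in KO+ZnO NPs. Treated and untreated libraries did not overlap in either genotype, but for *Bub1b* the gap between WT replicate 3 and the lowest treated library was 34.2 against 34.6 CPM. It rose in the WT+ZnO NPs-labelled libraries (log2 fold change 1.31, SE 0.35, adjusted p = 0.0117 from edgeR) and had a log2 fold change of 1.04 in KO+ZnO NPs that did not pass (adjusted p = 0.0657). *Ube2c*, the ubiquitin-conjugating enzyme of the complex, rose by 1.97 and 1.41 on the log2 scale, with 22.8% of its exon bases lying under exons of *Tnnc2* on the opposite strand, a muscle gene. *Tnnc2* had at most 4 counts in any library, while *Acta1*, another muscle gene, was at 589.6 to 7261 CPM, and how reads of the shared bases were assigned was not tested.

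The mitotic kinases and the chromosomal passenger complex, which corrects attachments of chromosomes to the spindle, held the gene with the largest rise. *Plk1*, a kinase of mitotic entry and exit, was at 5.79, 8.18 and 18.5 CPM in WT and 27.2, 42.7 and 57.3 in the WT+ZnO NPs-labelled libraries, a log2 fold change of 1.97 (SE 0.44, adjusted p = 0.00487 from edgeR). In KO it was at 6.93, 7.07 and 13.9 CPM and in KO+ZnO NPs at 19.9, 21.4 and 21.9 CPM, a log2 fold change of 1.18 that did not pass (SE 0.43, adjusted p = 0.0866 from edgeR) although the groups did not overlap. *Birc5*, the survivin subunit of the passenger complex, was at 10.03, 11.8 and 23.3 CPM in WT and 25.0, 43.2 and 50.04 in the WT+ZnO NPs-labelled libraries. Its level was 8.80, 9.60 and 14.7 CPM in KO and 21.8, 39.7 and 29.5 in KO+ZnO NPs. It rose in both comparisons, by a log2 fold change of 1.39 (SE 0.38, adjusted p = 0.0132) and 1.46 (SE 0.38, adjusted p = 0.0307 from edgeR). *Aurkb*, the kinase of that complex (1.51 and 1.27), *Cdca8*, its borealin subunit (1.77 and 1.17), and *Cdca3*, a protein of mitotic entry (1.67 and 1.69), rose in both, and *Cdca3* had the largest rise of the 40 genes in KO+ZnO NPs (SE 0.39, adjusted p = 0.0203 from edgeR). *Aurka*, the kinase of the spindle poles, rose in the WT+ZnO NPs-labelled libraries (1.46) and had a log2 fold change of 1.09 in KO+ZnO NPs (adjusted p = 0.0524 from edgeR).

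**Figure D2:**
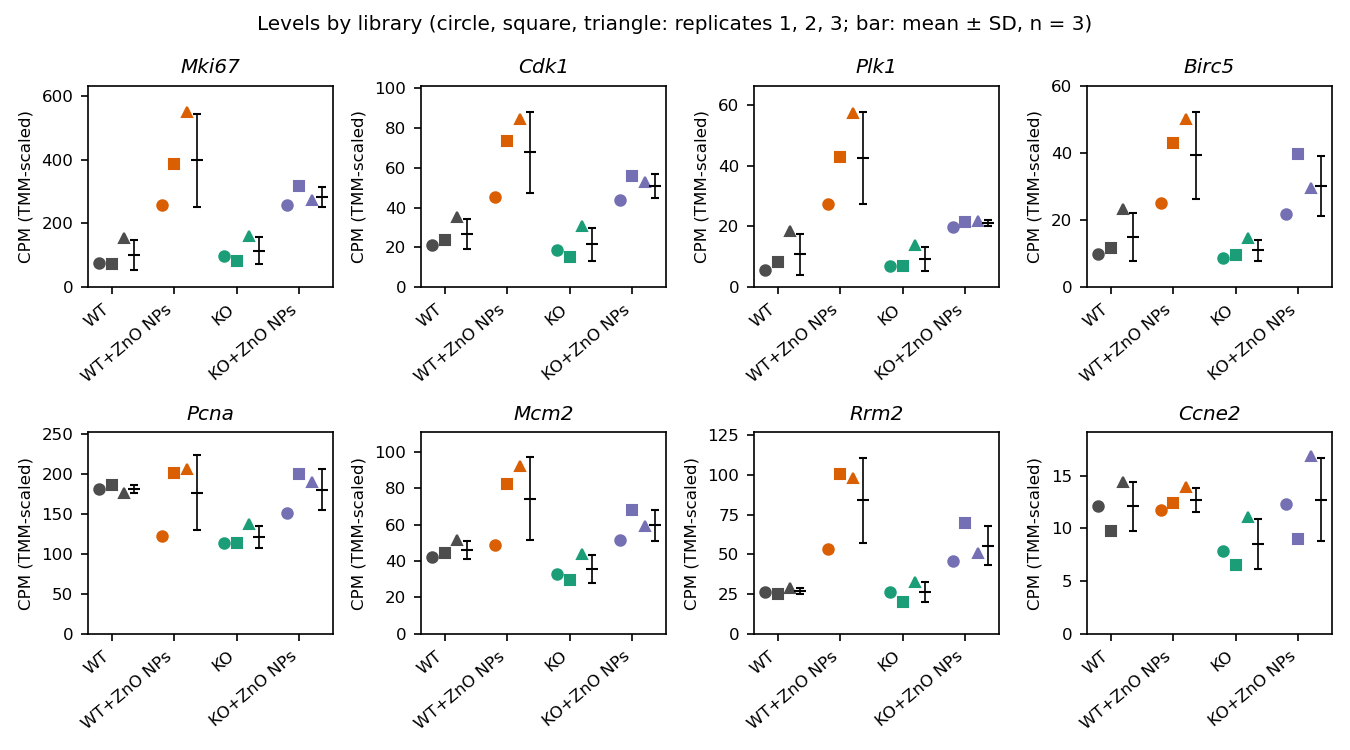
CPM of 8 of the genes in each library, by group, with circles, squares and triangles for replicates 1, 2 and 3 and a bar for the mean ± SD (n = 3), on linear axes from 0. *Mki67*, *Cdk1*, *Plk1* and *Birc5* do not overlap between treated and untreated libraries of a genotype, while *Pcna* in the WT+ZnO NPs-labelled libraries (122 to 206 CPM) spans the WT levels (176 to 187 CPM).

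Of 7 kinesins and other spindle proteins, 4 rose in the WT+ZnO NPs-labelled libraries and 2 in KO+ZnO NPs. *Kif11*, the motor that pushes the spindle poles apart, was at 23.3, 24.7 and 42.5 CPM in WT and 45.3, 86.9 and 92.1 in the WT+ZnO NPs-labelled libraries. Its level was 25.6, 18.9 and 45.9 CPM in KO and 59.7, 60.2 and 64.8 in KO+ZnO NPs. It rose in the former comparison (log2 fold change 1.31, SE 0.36, adjusted p = 0.0142 from edgeR), and the latter log2 fold change of 1.03 did not pass (adjusted p = 0.0757). *Nusap1*, a microtubule-binding protein of the spindle, was at 16.07, 16.04 and 31.7 CPM in WT and 29.9, 38.3 and 52.8 in the WT+ZnO NPs-labelled libraries. Its level was 15.6, 11.4 and 25.1 CPM in KO and 32.5, 37.6 and 47.2 in KO+ZnO NPs. Its groups overlapped in the former comparison, with a log2 fold change of 0.93 (adjusted p = 0.0530 from edgeR), and not in the latter, in which it rose by 1.17 (SE 0.35, adjusted p = 0.0486). *Prc1*, which bundles the microtubules of the central spindle, likewise rose in KO+ZnO NPs (1.11, adjusted p = 0.0408) and had a log2 fold change of 0.75 in the WT+ZnO NPs-labelled libraries (adjusted p = 0.0738 from edgeR), and the genotype by treatment interaction did not pass for either gene (*Nusap1* 0.25, adjusted p = 0.787, and *Prc1* 0.36, adjusted p = 0.641). *Kif20a*, a motor of cytokinesis, passed in neither comparison (1.05 and 0.86), and 29.3% of its exon bases lie under exons of *Cdc23*.

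At the centromere, where the spindle attaches, *Cenpf* was at 9.74, 12.4 and 29.8 CPM in WT and 45.2, 64.1 and 88.0 in the WT+ZnO NPs-labelled libraries, a rise of 1.93 on the log2 scale (SE 0.44, adjusted p = 0.00562 from edgeR). It was at 16.5, 12.7 and 30.03 CPM in KO and 50.3, 41.6 and 46.1 in KO+ZnO NPs (log2 fold change 1.22, adjusted p = 0.0794 from edgeR). *Cenpa*, the histone that marks centromeres, rose in both comparisons (1.42 and 1.33). *Foxm1*, a transcription factor of the mitosis genes, was at 11.2, 11.8 and 22.1 CPM in WT and 31.3, 48.2 and 61.5 in the WT+ZnO NPs-labelled libraries. Its level was 12.5, 10.97 and 20.03 CPM in KO and 27.3, 41.9 and 33.0 in KO+ZnO NPs. It rose by 1.65 (SE 0.34, adjusted p = 0.00354) and 1.23 on the log2 scale (SE 0.34, adjusted p = 0.0377 from edgeR), and treated and untreated libraries did not overlap.

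**Figure D3:**
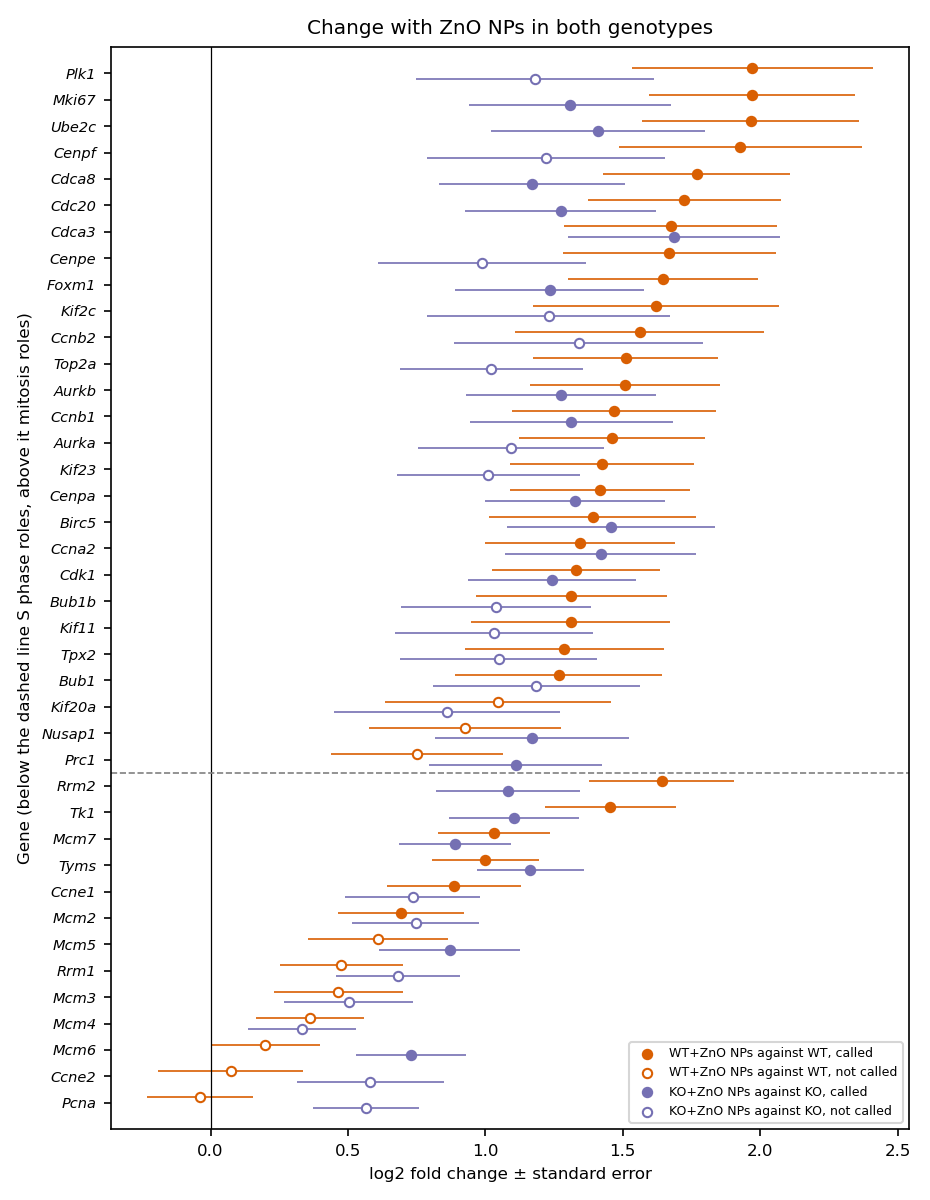
Log2 fold change with its standard error for each of the 40 genes, in orange for the WT+ZnO NPs-labelled libraries against WT and in violet for KO+ZnO NPs against KO, with filled points at an adjusted p below 0.05. All 40 violet values and 39 orange values lie above 0, *Pcna* being the exception (-0.04), and the mitosis genes above the dashed line lie further right than most S phase genes.

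Among the S phase genes, those of nucleotide supply rose in both comparisons except *Rrm1*, and of the 7 genes of the helicase and the clamp 2 rose in the WT+ZnO NPs-labelled libraries and 3 in KO+ZnO NPs. *Rrm2*, the regulated subunit of ribonucleotide reductase, was at 26.5, 25.4 and 28.9 CPM in WT and 53.3, 101 and 97.9 in the WT+ZnO NPs-labelled libraries. Its level was 26.3, 19.8 and 32.7 CPM in KO and 46.2, 69.6 and 50.9 in KO+ZnO NPs. It rose by 1.64 (SE 0.26, adjusted p = 0.000812) and 1.08 on the log2 scale (SE 0.26, adjusted p = 0.0242 from edgeR). *Tk1*, thymidine kinase of the salvage pathway, was at 19.6, 23.0 and 31.4 CPM in WT and 47.9, 67.6 and 87.1 in the WT+ZnO NPs-labelled libraries. Its level was 19.99, 22.98 and 28.4 CPM in KO and 46.0, 54.2 and 53.4 in KO+ZnO NPs. Every treated library of *Rrm2* and *Tk1* lay above every untreated one. *Tk1* rose by 1.45 (SE 0.24, adjusted p = 0.000887) and 1.105 (SE 0.24, adjusted p = 0.0162 from edgeR), and *Tyms*, thymidylate synthase, by 1.00 and 1.16 (SE 0.20, adjusted p = 0.00239 and 0.00837). *Rrm1*, the large subunit of the reductase, had log2 fold changes of 0.475 and 0.68 that did not pass.

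*Pcna* was at 181, 187 and 176 CPM in WT and at 122, 201 and 206 CPM in the WT+ZnO NPs-labelled libraries, a log2 fold change of -0.04 (SE 0.19, adjusted p = 0.886 from edgeR). It was at 114, 114 and 138 CPM in KO and 151, 200 and 190 CPM in KO+ZnO NPs, a log2 fold change of 0.57 (SE 0.19, adjusted p = 0.0701 from edgeR). The KO+ZnO NPs libraries thus lay above those of KO and spanned the range of WT, and 19.1% of its 50-base stretches occur in *Pcna-ps2*. *Mcm2* was at 42.2, 44.6 and 51.4 CPM in WT and 48.8, 82.2 and 92.4 in the WT+ZnO NPs-labelled libraries. Its level was 32.8, 29.8 and 44.1 CPM in KO and 51.6, 68.4 and 59.2 in KO+ZnO NPs. It rose in the former comparison, with overlapping groups (log2 fold change 0.69, SE 0.23, adjusted p = 0.0324 from edgeR), and had a log2 fold change of 0.75 in the latter (adjusted p = 0.0532). *Mcm5* was at 52.2, 51.2 and 60.9 CPM in WT and 48.3, 95.2 and 107 in the WT+ZnO NPs-labelled libraries. Its level was 35.4, 32.3 and 45.3 CPM in KO and 58.6, 75.8 and 72.1 in KO+ZnO NPs. Its log2 fold change was 0.61 in the former (SE 0.25, adjusted p = 0.0748 from edgeR), where replicate 1 lay below all WT libraries, and it rose by 0.87 in the latter (SE 0.26, adjusted p = 0.0453). *Mcm7* rose in both (1.03 and 0.89) and *Mcm6* in KO+ZnO NPs (0.73, against 0.20), and for *Mcm3* (0.465 and 0.50) and *Mcm4* (0.36 and 0.33) neither comparison passed. *Mcm7* shares 18.1% of its 50-base stretches with other genes, most with *Gm5487*.

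Of the cyclin E genes, whose proteins drive entry into S phase with the kinase CDK2, 1 rose in the WT+ZnO NPs-labelled libraries and 0 in KO+ZnO NPs. *Ccne1* was at 6.00, 6.49 and 8.46 CPM in WT and 8.36, 16.1 and 14.2 in the WT+ZnO NPs-labelled libraries. Its level was 4.93, 4.38 and 5.06 CPM in KO and 7.37, 8.06 and 8.49 in KO+ZnO NPs. It rose in the former comparison (log2 fold change 0.89, SE 0.24, adjusted p = 0.0144 from edgeR) with overlapping groups, and had a log2 fold change of 0.735 in the latter (adjusted p = 0.0674). *Ccne2* was at 12.1, 9.76 and 14.4 CPM in WT and 11.8, 12.4 and 13.9 in the WT+ZnO NPs-labelled libraries. Its level was 7.87, 6.51 and 11.1 CPM in KO and 12.3, 8.97 and 16.8 in KO+ZnO NPs, and its groups overlapped in both comparisons (log2 fold change 0.07 and 0.58).

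Without ZnO NPs, 0 of the 40 genes passed between KO and WT in edgeR, against 8.18% of all genes. At an unadjusted p below 0.05 there were 4 of the 40, against 26.1% of all genes, and DESeq2 called 1, against 15.7%. All 13 S phase genes had a negative log2 fold change in KO, from -0.57 to -0.04 with a median of -0.45, and 22 of the 27 mitosis genes did, with a median of -0.17. In 6 S phase genes (*Pcna*, *Mcm3*, *Mcm5*, *Mcm6*, *Ccne1* and *Tyms*) each KO library was lower than each WT library, as in 19.9% of all genes, and in 0 mitosis genes. *Pcna* had the most negative value (-0.57, SE 0.19, adjusted p = 0.0905 from edgeR), followed by *Mcm6* (-0.56, SE 0.20, adjusted p = 0.104) and *Ccne1* (-0.54, SE 0.25, adjusted p = 0.191). The highest values were those of *Cenpf* (0.19), *Mki67* (0.17) and *Cenpe* (0.10), each smaller than its SE. The median over the 40 genes, -0.23, turned to 0.16 without WT replicate 3, while that of *Pcna* stayed between -0.67 and -0.49 over 22 alternatives. Without the library labelled WT+ZnO NPs replicate 1, which adds to the shared estimate of spread, *Pcna* and *Mcm6* passed.

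Between the treated groups, KO+ZnO NPs and the WT+ZnO NPs-labelled libraries, 0 of the 40 genes passed in edgeR, against 3.28% of all genes, and 0 in DESeq2, against 12.2%. An unadjusted p below 0.05 was found for 3 of the 40, against 24.8% of all genes. The log2 fold change was negative in 39 of the 40 genes with a median of -0.39, and *Plk1* had the most negative (-1.01, SE 0.43, adjusted p = 0.177 from edgeR), followed by *Ube2c* (-0.76) and *Ccne1* (-0.69). The highest were *Pcna* (0.03), *Ccne2* (-0.001) and *Mcm6* (-0.03). *Plk1* was the 1 gene with all KO+ZnO NPs libraries below all those labelled WT+ZnO NPs, as in 10.8% of all genes. The test of whether the response to ZnO NPs differed between genotypes, the interaction, passed for 0 of the 40 genes in edgeR, against 8.68% of all genes, and for 0 in DESeq2, against 17.4%. Its unadjusted p was below 0.05 for 1 of the 40, *Pcna* (0.605, SE 0.27, adjusted p = 0.179 from edgeR), against 27.4% of all genes. Its other highest values were those of *Mcm6* (0.53) and *Ccne2* (0.51), and its lowest those of *Plk1* (-0.79, SE 0.60), *Cenpf* (-0.71) and *Cenpe* (-0.68). For *Cenpf* the SE was 0.60 and for *Cenpe* 0.53.

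The median over the 27 mitosis genes of the log2 ratio to the WT mean was -0.56, -0.355 and 0.60 in WT, 0.88, 1.54 and 1.825 in the WT+ZnO NPs-labelled libraries, -0.37, -0.62 and 0.305 in KO and 0.89, 1.09 and 1.06 in KO+ZnO NPs. Over the 13 S phase genes it was -0.09, -0.10 and 0.16 in WT, -0.04, 0.80 and 0.97 in the WT+ZnO NPs-labelled libraries, -0.49, -0.63 and -0.12 in KO and 0.10, 0.47 and 0.40 in KO+ZnO NPs. The library labelled WT+ZnO NPs replicate 1 was the lowest of its group for all 40 genes, and its S phase median lay within the WT range while its mitosis median lay above it.

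Marker lists of other skin cells were counted in the same comparisons, in which 20.8% of all genes rose and 22.1% fell in the WT+ZnO NPs-labelled libraries and 6.57% and 8.09% in KO+ZnO NPs. The 15 matched genes of the anagen hair matrix and sheath, a compartment rich in dividing cells, summed to 13.6 to 25.1 CPM in WT, 1504 to 6628 in the WT+ZnO NPs-labelled libraries, 48.8 to 12890 in KO and 321 to 9819 in KO+ZnO NPs. All 15 rose in the WT+ZnO NPs-labelled libraries against WT, 12 were higher in KO than in WT and 0 of 15 passed between KO+ZnO NPs and KO. No gene of the list was at 0 in all libraries of a group, while *Krt71*, *Krt73* and *Krt31* were at 0 in a WT library and *Krt31* in a KO library. By replicate, the sum was 25.1, 13.6 and 23.1 CPM in WT, 1504, 5123 and 6628 in the WT+ZnO NPs-labelled libraries, 12890, 48.8 and 3846 in KO and 9819, 7040 and 321 in KO+ZnO NPs. The WT+ZnO NPs-labelled libraries thus stood in the same order in hair genes as in the mitosis median (0.88, 1.54 and 1.825), while KO replicate 1, the highest of all in hair genes, had a mitosis median of -0.37 and KO+ZnO NPs replicate 3, the lowest of its group, had 1.06. The part of hair growth in either comparison was not tested.

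**Figure D4:**
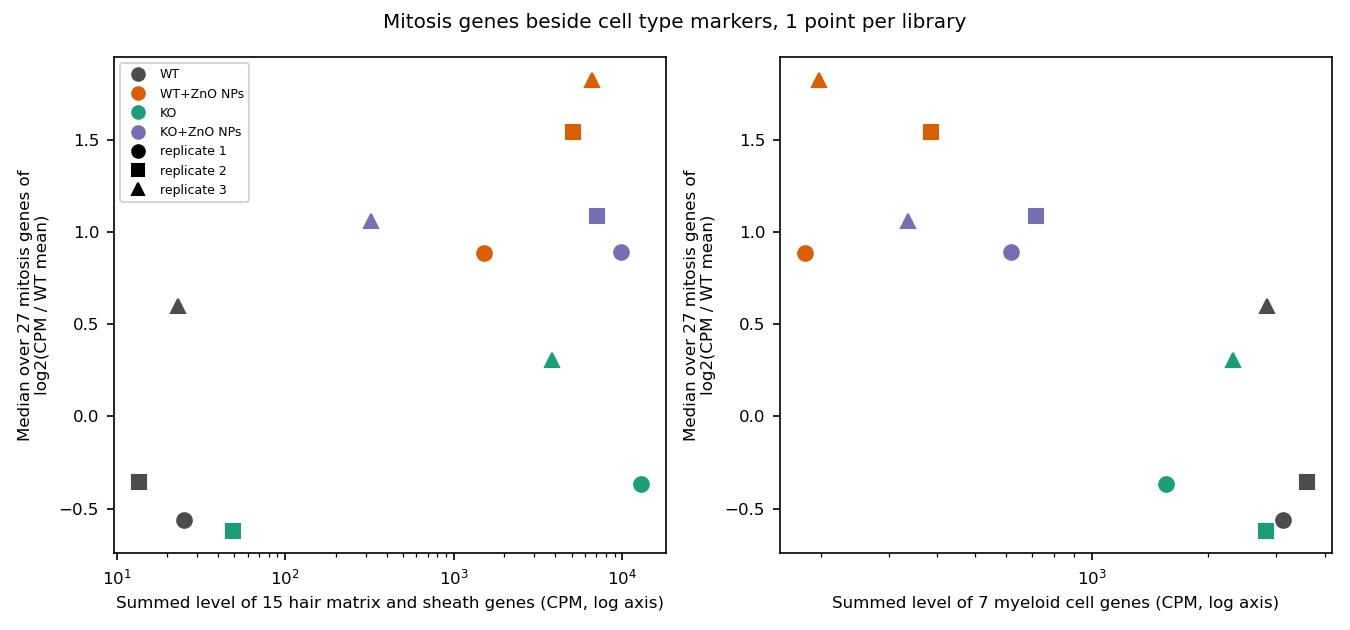
Median log2 ratio to the WT mean over the 27 mitosis genes (vertical axis) against the summed CPM of 15 hair matrix and sheath genes (left) and of 7 myeloid cell genes (right), on log axes, with 1 point per library. Libraries given ZnO NPs lie at 0.88 to 1.825 on the vertical axis, at 321 to 9819 CPM of hair genes and 182 to 718 CPM of myeloid genes, and the WT+ZnO NPs-labelled libraries rise from left to right in the left panel. KO libraries lie at -0.62 to 0.305, at 48.8 to 12890 CPM of hair genes, and WT libraries at -0.56 to 0.60, at 13.6 to 25.1 CPM.

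The 7 myeloid genes, *Ptprc* and *Csf1r* among them, all fell in both ZnO NP comparisons, their sum going from 2845 to 3597 CPM in WT to 182 to 385 in the WT+ZnO NPs-labelled libraries and from 1559 to 2823 in KO to 335 to 718 in KO+ZnO NPs. The 6 melanocyte genes all rose in the WT+ZnO NPs-labelled libraries (20.4 to 45.8 CPM in WT, 392 to 1176) and 0 passed in KO+ZnO NPs (52.4 to 202.5 in KO, 299.8 to 469). Of the 5 endothelial genes 5 fell in the WT+ZnO NPs-labelled libraries and 0 in KO+ZnO NPs, and of the 6 T cell genes 2 and 5 fell. Basal keratinocyte genes rose in 4 of 8 and in 0 of 8, and those of the hyperproliferative epidermis in 1 of 7, with 3 falling, and in 0 of 7. Of the 6 adipocyte genes 4 fell in the former comparison and 0 in the latter, of the 6 fibroblast genes 1 rose and 2 fell in the former and 1 fell in the latter, of the 7 sebocyte genes 1 and 3 rose, of the 6 muscle genes tested 0 and 1 rose, and of the 4 B cell genes tested 3 and 2 fell. Between KO and WT, 2 of the 6 T cell genes and 2 of the 6 melanocyte genes were higher. So were 1 of the 8 basal keratinocyte genes and 1 of the 7 hyperproliferative genes, and 1 of the 6 muscle genes tested was lower. Of all genes 4.61% were higher and 3.58% lower there, and genes of the other lists of this paragraph did not pass. The part of these lists in the results for the 40 genes was not tested.

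Of 22 further replication genes, 10 rose in the WT+ZnO NPs-labelled libraries and 14 in KO+ZnO NPs, against 20.8% and 6.57% of all genes. In either comparison 0 fell, and 0 passed between KO and WT in edgeR, where all 22 values were negative, from *Gins2* (-0.67) and *Gins1* (-0.66) to *Uhrf1* (-0.18) and *Gins3* (-0.12). In that comparison the unadjusted p was below 0.05 for 6 of the 22, against 26.1% of all genes, and DESeq2 called 3, against 15.7%. *Dut*, which keeps uracil out of DNA, was highest or next to it in both (1.41 and 1.24), beside *Uhrf1*, a keeper of DNA methylation, in the former (1.59) and *Gmnn*, an inhibitor of renewed licensing, in the latter (1.12). *Fen1* (-0.27) and *Pola1* (-0.25), a flap nuclease and a polymerase of the lagging strand, were lowest in the former, and *Cdc6* (0.29) and *Gins4* (0.32) in the latter, none of which passed. Of 26 further mitosis genes, 21 and 19 rose and 0 fell, beside the same shares of all genes, with *Cdc25c*, a phosphatase that activates CDK1 (2.135), and the kinesin *Kif22* (1.885) highest in the former and *Pbk* (1.63) and *Spc24* (1.56) in the latter. *Pttg1*, the securin that holds sister chromatids together, was lowest in both (-0.38 and 0.20) and passed in neither. *Smc2* (0.43) in the former and *Espl1* (0.515) in the latter were next lowest. Between KO and WT 0 of the 26 passed in edgeR and 1 in DESeq2, with an unadjusted p below 0.05 for 1, and the values ran from *Pttg1* (-1.025, adjusted p = 0.0549 from edgeR) and *Spc25* (-0.585) to *Nek2* (-0.035) and *Cdc25c* (0.20). Without KO replicate 2, 0 of the 22 and 0 of the 26 genes passed in KO+ZnO NPs, with 6 and 3 without KO replicate 1, 7 and 5 without KO+ZnO NPs replicate 2 and 8 and 7 without KO+ZnO NPs replicate 3. In the WT+ZnO NPs-labelled libraries, the counts were 5 and 13 without WT replicate 2 or without replicate 3 of the treated group, and the mitosis list had 13 without WT replicate 1.

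A list of 14 G1 cyclins, CDKs and E2F factors, named the G1 list below, also held *Mybl2*, *Myc* and *Cdc25a*. Of these 14 genes 9 rose and 1 fell in the WT+ZnO NPs-labelled libraries, against 20.8% and 22.1% of all genes. In KO+ZnO NPs 0 of the 14 passed in edgeR, and 4 passed without the library labelled WT+ZnO NPs replicate 1. DESeq2 called 2 of the 14, against 22.6% of all genes, and the unadjusted p was below 0.05 for 6, against 32.6%. *E2f7* (1.04, adjusted p = 0.0514 from edgeR) and *Mybl2* (0.85) were highest in KO+ZnO NPs and *Ccnd3* (-0.22) and *Ccnd1* lowest. The interaction passed for 1 of the 14 in edgeR, *E2f3*, against 8.68% of all genes. DESeq2 called it for 4, against 17.4%, and its unadjusted p was below 0.05 for 9, against 27.4%. *E2f2* (1.91, SE 0.33, adjusted p = 0.00114 from edgeR) and *Mybl2*, which encodes B-MYB (1.55, SE 0.31), had the largest rises in the WT+ZnO NPs-labelled libraries, and with the Y-linked covariate *Mybl2* no longer passed, nor did *Ccnd2*. Over 21 alternatives the log2 fold change of *Mybl2* stayed between 1.20 and 1.85 and that of *Ccnd2* between 0.865 and 1.24. *E2f3*, an activator of S phase genes, was at 13.8, 17.6 and 15.1 CPM in WT and 28.5, 39.02 and 39.99 in the WT+ZnO NPs-labelled libraries. Its level was 21.3, 17.3 and 20.6 CPM in KO and 25.4, 22.5 and 19.1 in KO+ZnO NPs. It rose in the former (1.21, SE 0.17, adjusted p = 0.000405 from edgeR), and all of those libraries lay above all others. In KO+ZnO NPs its log2 fold change was 0.18 (adjusted p = 0.496), and the interaction was -1.03 (SE 0.24, adjusted p = 0.0301 from edgeR). That call was kept in 11 of 21 alternatives and lost when any WT library, WT+ZnO NPs-labelled library 2 or 3 or KO replicate 1 or 3 was left out, and with the Y-linked covariate. *Ccnd2*, a D-type cyclin, rose as well (1.03, adjusted p = 0.00318 from edgeR), from 158, 167 and 173 CPM in WT to 236, 406 and 378, against 215, 149 and 225 in KO and 266, 225 and 258 in KO+ZnO NPs (0.35). *Myc*, a driver of cell growth, rose in the former comparison (1.25, adjusted p = 0.0123 from edgeR), from 39.6, 39.2 and 30.3 to 61.6, 145 and 52.4 CPM, a call lost without WT replicate 3 and with the Y-linked covariate. Without replicate 2 of the treated group, the library at 145 CPM, the log2 fold change of *Myc* was 0.65. In KO+ZnO NPs it was 0.33. *Ccnd1* passed in neither (0.405 and -0.025). *Ccnd3*, another D-type cyclin, fell by 0.845 on the log2 scale in the former (adjusted p = 0.001015 from edgeR). *E2f1* (-0.26) was next lowest there and did not pass. It was the 1 gene of the 14 that was lower in KO than in WT, with 14.5, 16.8 and 18.2 against 26.6, 29.8 and 34.5 CPM (log2 fold change -0.88, SE 0.17, adjusted p = 0.0147 from edgeR), a call lost without WT replicate 2, WT replicate 3 or KO replicate 1, and from replicates 2 and 3 of KO and KO+ZnO NPs. *E2f7* (-1.08, adjusted p = 0.0604 from edgeR) was lower still but did not pass, and *E2f2* (0.72) and *Mybl2* (0.48) were highest in KO against WT.

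CDK inhibitors and pocket proteins hold cells before S phase. Their list of 14 genes, named the inhibitors below, also held *Lin52*, *Btg1*, *Btg2* and *Gas1*, which belong to neither class. Of the 14 genes 3 were higher and 0 lower in KO than in WT, against 4.61% and 3.58% of all genes. In the WT+ZnO NPs-labelled libraries 2 rose and 1 fell, against 20.8% and 22.1% of all genes, and in KO+ZnO NPs 0 rose and 2 fell, against 6.57% and 8.09%. Between the treated groups 1 was higher, against 3.28% of all genes in either direction, and the interaction passed for 1, *Cdkn1c*, against 8.68%. *Cdkn2a*, which encodes an inhibitor of CDK4 and CDK6 and an activator of p53, was at 1.47, 1.02 and 0.893 CPM in WT and 15.7, 11.85 and 15.98 in KO, a log2 fold change of 3.68 (SE 0.41, adjusted p = 0.00106 from edgeR) that passed in all 22 alternatives. It was at 1.64, 2.83 and 1.23 CPM in the WT+ZnO NPs-labelled libraries and 8.725, 11.2 and 4.88 in KO+ZnO NPs, higher in the latter by a log2 fold change of 2.12 (SE 0.38, adjusted p = 0.0307 from edgeR). *Cdkn2b*, a related inhibitor, was at 10.9, 7.37 and 7.86 CPM in WT and 34.1, 34.1 and 22.7 in KO (1.80, SE 0.42, adjusted p = 0.0280 from edgeR). *Cdkn1c*, an inhibitor of CDK2, was at 9.36, 13.4 and 7.86 CPM in WT and 15.8, 42.7 and 34.0 in KO (1.59, SE 0.37, adjusted p = 0.0294 from edgeR), and at 9.16, 12.65 and 12.4 CPM in KO+ZnO NPs. It fell between KO and KO+ZnO NPs by 1.44 on the log2 scale (SE 0.37, adjusted p = 0.0301 from edgeR), and in the WT+ZnO NPs-labelled libraries it was at 12, 23.99 and 15.8 CPM. The *Cdkn2b* call was lost when any WT library, KO replicate 1 or KO replicate 2 was left out, with the Y-linked covariate and from replicates 2 and 3 of KO and KO+ZnO NPs, and the *Cdkn1c* call when any WT library, KO replicate 2 or KO replicate 3 was. The fall of *Cdkn1c* was lost without KO replicate 2, KO replicate 3 or any KO+ZnO NPs library, and with only the groups compared. The *Cdkn2a* difference between treated groups was lost without WT replicate 2 or 3, WT+ZnO NPs-labelled library 1 or 3, KO replicate 3 or KO+ZnO NPs replicate 1 or 2. It was also lost with the Y-linked covariate, with only the groups compared and from replicates 2 and 3 of KO and KO+ZnO NPs, and it passed in 12 of 22 alternatives.

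*Cdkn1b*, an inhibitor that rises as cells leave the cycle, rose in the WT+ZnO NPs-labelled libraries, from 73.3, 58.8 and 82.7 CPM to 131, 110 and 109 (0.70, SE 0.16, adjusted p = 0.00527 from edgeR), and was at 88.2, 80.1 and 94.7 CPM in KO and 103, 125 and 90.6 in KO+ZnO NPs. *Cdkn1a*, a target of p53, was at 197, 155 and 128 CPM in WT and 178, 192 and 134 in the WT+ZnO NPs-labelled libraries. Its level was 199, 159 and 126 CPM in KO and 252, 418 and 177 in KO+ZnO NPs, and passed in neither (0.07 and 0.81, adjusted p = 0.857 and 0.0931 from edgeR). *Btg2*, an antiproliferative gene of the early response, had the largest rise of the list in the WT+ZnO NPs-labelled libraries (2.78, SE 0.68, adjusted p = 0.00806 from edgeR), with 305, 864 and 74.5 CPM against 78.9, 46.2 and 56.2 in WT, so that the groups overlapped. Without the library at 864 CPM, replicate 2, the log2 fold change of *Btg2* was 1.65, and with the Y-linked covariate the call was lost (adjusted p = 0.115 from edgeR), as was that of *Cdkn1b*. Over 21 alternatives the log2 fold change of *Cdkn1b* stayed between 0.57 and 0.81. *Rbl2*, a pocket protein that holds genes of the cycle off in resting cells, fell in both comparisons, by 0.71 (adjusted p = 0.00102) and 0.525 on the log2 scale (adjusted p = 0.01975 from edgeR), the latter lost without KO replicate 2, KO replicate 3 or KO+ZnO NPs replicate 2, and with only the groups compared. The other ends of the list did not pass: *Cdkn2d* (-0.37) and *Cdkn2c* (-0.28) in KO against WT, *Cdkn2b* (0.84) and *Cdkn2c* (-0.26) in the WT+ZnO NPs-labelled libraries, and *Cdkn2d* (0.61) and *Cdkn2a* (-0.81) in KO+ZnO NPs.

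Between the treated groups the replication list passed for 0 of 22 genes in edgeR and 0 in DESeq2, the mitosis list for 0 of 26 and 1, the G1 list for 0 of 14 and 4 and the inhibitors for 1 of 14 and 2, against 3.28% of all genes in edgeR and 12.2% in DESeq2. The unadjusted p was below 0.05 for 3, 1, 6 and 3 of them, against 24.8% of all genes. The replication values ran from *Cdc6* (-0.95) and *Mcm10* (-0.72), which act at the origins of replication, to *Gmnn* (0.21) and *Pola1* (0.46). The mitosis values ran from *Espl1* (-0.94), the separase that cuts the link between sister chromatids, and *Kif18b* (-0.63) to *Smc2* (0.06) and *Cks2* (0.07). In the G1 list *E2f8* (-0.76) and *Ccnd1* (-0.745) were lowest and *Cdk6* (0.095) and *Ccnd3* (0.28) highest. Among the inhibitors *Btg2* (-2.21, SE 0.67, adjusted p = 0.0819 from edgeR) and *Cdkn1c* (-0.60) were lowest and *Cdkn1a* (0.75) stood next to *Cdkn2a*. Apart from *Cdkn2a*, none of these genes passed in edgeR.

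The interaction passed for 0 of the 22 replication and 0 of the 26 mitosis genes in edgeR, and for 1 and 0 in DESeq2, with an unadjusted p below 0.05 for 4 and 0, against the shares of all genes given above (8.68%, 17.4% and 27.4%). For the inhibitors DESeq2 called it for 3 of the 14, and the unadjusted p was below 0.05 for 4. *Gins2* (0.88, adjusted p = 0.0708 from edgeR) and *Pola1* (0.86) were highest and *Uhrf1* (-0.50) and *Cdc6* (-0.48) lowest of the replication genes. *Pttg1* (0.58) and *Anln* (0.52) were highest and *Cdc25c* (-0.71) and *Espl1* (-0.71) lowest of the mitosis genes. In the G1 list *E2f7* (1.12) and *E2f1* (0.63) were highest, and *E2f2* (-1.45, SE 0.45, adjusted p = 0.0694 from edgeR) was lower than *E2f3*. Of the inhibitors, *Cdkn1a* (0.73) and *Cdkn2d* (0.57) were highest, *Btg2* (-3.01, SE 0.92, adjusted p = 0.0672 from edgeR) was lowest, and *Cdkn1c* (-2.19, SE 0.52, adjusted p = 0.0307 from edgeR) passed. This call was kept in 13 of 21 alternatives and lost when any WT library, WT+ZnO NPs-labelled library 2 or 3, KO replicate 2 or 3 or KO+ZnO NPs replicate 1 was left out.

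**Figure D5:**
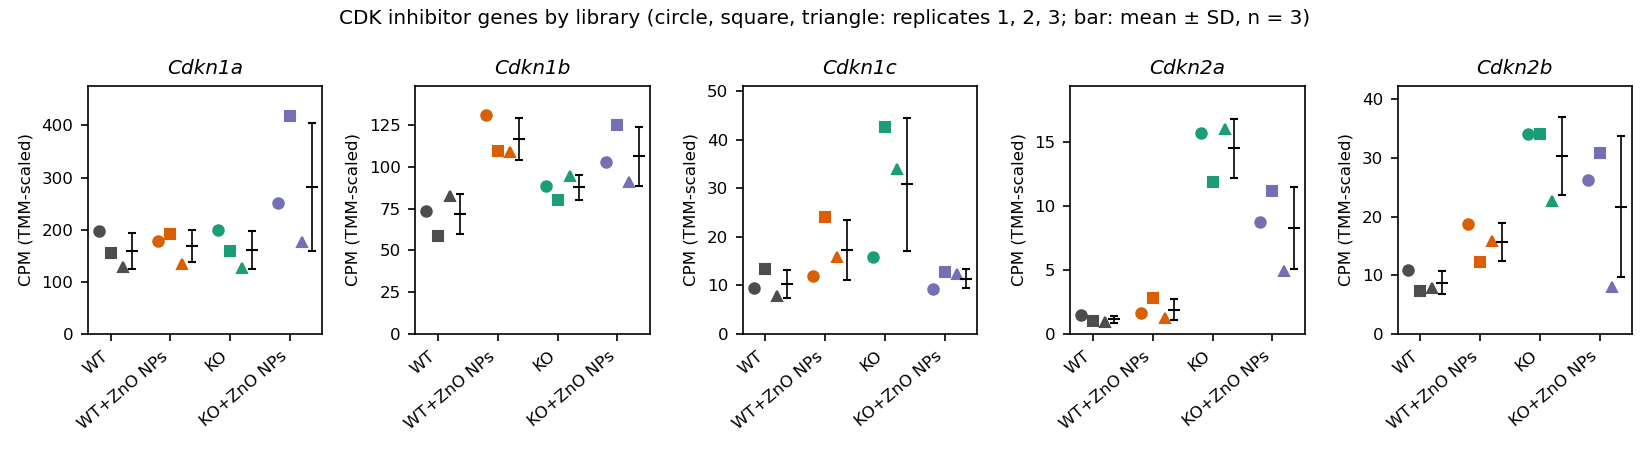
CPM of 5 CDK inhibitor genes in each library, by group, with circles, squares and triangles for replicates 1, 2 and 3 and a bar for the mean ± SD (n = 3), on linear axes from 0. *Cdkn2a* is at 0.893 to 2.83 CPM in all libraries labelled WT or WT+ZnO NPs and at 4.88 to 15.98 CPM in those labelled KO or KO+ZnO NPs.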

How the data were processed

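Skin RNA-seq of 12 libraries, 3 in each of 4 groups, was analysed from the deposited read counts per gene, which the authors made from their aligned reads and which are whole numbers that were not normalised. The study's methods name STAR and HTSeq, whereas the submitters' processing notes name HISAT2 2.0.5 and the build mm10. Strand and annotation release are not given in the sources used here. Ensembl identifiers were matched to GENCODE M21 for 52403 of 52636 genes, and every count column was mapped to a sample. Genes passing filterByExpr (minimum count 10) were fitted over all 12 libraries with edgeR 4.0.16 (TMM, quasi-likelihood test) in R 4.3.3, with Benjamini-Hochberg adjustment over 18822 genes and a threshold of 0.05. SE is the log2 fold change divided by the root of the test's F, and is approximate. The fit was tested on simulated data. Total counts were 21076320 to 28867802 per library, and the common dispersion, edgeR's measure of the spread between samples, was 0.109.

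The members, gene lists and tests were chosen with earlier results of these data known. Named genes were the members listed by role with their values, the 3 highest and 3 lowest members of each comparison, the 2 highest and 2 lowest of each pathway list, and *Cdkn1a*, *Cdkn1b*, *Ccnd1*, *Ccnd2* and *Myc*. *E2f3*, *Cdkn1c* and *Rbl2* were named after their values were seen. Alternatives were DESeq2 1.42.0, other scalings and filters, only the groups compared, a replicate block and a Y-linked covariate. Further ones left out replicate 1 of KO and of KO+ZnO NPs together, or each library in turn. The newer edgeR fit, and all alternatives for the pathway lists and G1 genes, were chosen after seeing the data.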

Additional observations from a re-analysis of the deposited data

Results flagged for a closer look

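The interaction test of edgeR passed for 1 of the 14 genes of the G1 list and for 1 of the 14 genes of the inhibitor list, against 8.68% of all genes, so these counts are near the share over all genes. In the same test 9 of 15 hair matrix and sheath genes, 3 of 6 melanocyte genes and 1 of 7 hyperproliferative genes passed with negative values. Positive values passed for 3 of 5 endothelial, 2 of 7 myeloid and 1 of 6 adipocyte genes, and the part of these lists was not tested. The response of *E2f3*, an activator of S phase genes, differed between genotypes by the interaction test of edgeR, with a log2 difference of -1.031 (SE 0.24, adjusted p = 0.0301), and it passed in 11 of 21 alternatives, with adjusted p from 0.00364 to 0.205. It was lost when any WT library, WT+ZnO NPs-labelled library 2 or 3, or KO replicate 1 or 3 was left out, and with no filter on low counts, with the Y-linked covariate and from replicates 2 and 3 of KO and KO+ZnO NPs.

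The response of *Cdkn1c*, a CDK inhibitor, differed by -2.192 (SE 0.52, adjusted p = 0.0307 from edgeR), and it passed in 13 of 21 alternatives, with adjusted p from 0.00131 to 0.0744. It was lost when any WT library, WT+ZnO NPs-labelled library 2 or 3, KO replicate 2 or 3, or KO+ZnO NPs replicate 1 was left out. In both, the *Cdc42* transcript and the Y-linked transcripts of the WT+ZnO NPs-labelled libraries stand beside the difference, and their part was not tested. With the Y-linked covariate *E2f3* no longer passed and *Cdkn1c* did. That covariate did not vary within WT or within the WT+ZnO NPs-labelled libraries, so it cannot separate sex from treatment there. Over 21 alternatives the interaction ran from -1.19 to -0.805 for *E2f3* and from -2.95 to -1.875 for *Cdkn1c*.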

How the results depend on the processing

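Of the 40 genes, 0 passed between KO and WT, with 1 in DESeq2, 2 with only the groups compared and 0 to 2 with 1 library left out. Between the WT+ZnO NPs-labelled libraries and WT, 30 passed, with 18 under the Y-linked covariate and 21 to 36 with 1 library left out. Between KO+ZnO NPs and KO, 20 passed, with 13 under library size only, 35 in DESeq2 and 9 with only the groups compared. The count was 4 from replicates 2 and 3 of KO and KO+ZnO NPs, and 1 to 28 with 1 library left out. Between the treated groups, and for the interaction, 0 passed in every alternative run. The cause of these moves was not tested. No result reversed its direction while called. Library size alone moved the median of all genes to 0.163 between the WT+ZnO NPs-labelled libraries and WT, to -0.112 between the treated groups and to -0.129 for the interaction.

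Replicate numbers did not pair the samples over all groups: over 18 pairs with the same number the correlation of deviations ran from -0.343 to 0.429 and exceeded 0.1 in 4, and 6 of 12 libraries correlated best with their own number. Between KO and KO+ZnO NPs the same-number values were 0.429, 0.163 and 0.051, and those with unlike numbers ran from -0.414 to 0.276. Replicate 1 of both held Y-linked transcripts, and whether numbers pair those groups was not tested further. With the replicate block, 34 of the 40 genes passed between KO+ZnO NPs and KO, 33 between the WT+ZnO NPs-labelled libraries and WT, and 0 in the other 3 comparisons.

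Of the further replication genes and further mitosis genes, 6 and 10 passed with the Y-linked covariate in place of 10 and 21 in the WT+ZnO NPs-labelled libraries. In KO+ZnO NPs 4 and 3 passed with only the groups compared, or 8 and 4 from replicates 2 and 3 of KO and KO+ZnO NPs, in place of 14 and 19. For these lists only counts were taken in the alternatives, not log2 fold changes.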
